A study of Rattus norvegicus with 12 samples.

Results

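Vascular smooth muscle cells of the condition labelled NC carried acetylation of lysine 23 of histone H3 (H3K23ac) and of lysine 27 of histone H3 (H3K27ac) at overlapping places, to an extent that depended on the library of H3K27ac. Described here are the 4 NC libraries of these 2 marks, out of 12 libraries in all. They were chosen by their labels: libraries 1 and 2 of H3K23ac NC and libraries 1 and 2 of H3K27ac NC. The cells were primary vascular smooth muscle cells of the rat, the contractile cells of the arterial wall. Strain, sex, age and artery are not given in the labels, and neither NC nor SIANK, the other condition of the series, is spelled out there. The chromatin was profiled by CUT&Tag, in which an antibody on a mark tethers a transposase that cuts and tags the DNA beside it. Each library came as 1 list of peaks, with chromosome, start, end and length, and no height, score or read count, so the depth behind a list is unknown. The 4 lists held 40307 of the 94690 peaks of the series. Nothing in the labels says that libraries 1 and 2 came from separate cultures or animals, so the spread between them may be technical. The genome build is not given in the sources used here and the peaks carry no gene names, so the cell type could not be checked against its marker genes, and regions are named by position.

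Acetylation of lysines in the histone tails loosens the hold of histones on DNA and offers docking sites for bromodomain proteins. H3K27ac is written by the acetyltransferases CBP and EP300 and is the usual mark of active enhancers and promoters. H3K23ac is written by the same enzymes and by KAT6A and its relatives, and it is bound by the reader TRIM24. In smooth muscle cells such marks lie over the regulatory DNA of contractile, matrix and growth genes. The comparison of the marks asked which places carry both, which carry 1 of them, and which of the marks reaches further where both are present.

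The H3K27ac lists differed from each other more than they differed from H3K23ac as a group. The H3K23ac lists held 12909 peaks in library 1 and 10720 in library 2. The H3K27ac lists held 2644 peaks in library 1 and 14034 in library 2. The H3K27ac libraries therefore lay on either side of both H3K23ac libraries. Covered length had the same order, with 11.3 and 9.94 Mb for H3K23ac against 1.87 and 13.5 Mb for H3K27ac. The ratio of geometric means, H3K23ac over H3K27ac, was 1.93 for peak number (log2 0.95, SE 1.21) and 2.11 for covered length (log2 1.08, SE 1.43), with 2 libraries per mark. Exact two-sided permutation of the mark labels gave p = 1 for both, and with 2 libraries per mark no p below 0.333 can be reached. Without H3K27ac library 1 the log2 ratios were -0.25 and -0.35, so the sign of both contrasts depended on that library. Sequencing depth and calling threshold are not recorded in the lists, and their part in the length of a list was not tested.

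The marks shared 63.4% of the places found in the NC lists, and that share rested on H3K27ac library 2. Peaks of the 4 lists that overlapped by at least 1 bp were merged into 17536 regions, of which 11125 carried both marks in at least 1 library each (63.4%, exact 95% binomial interval 62.7 to 64.2, which covers counting over regions only). Without H3K27ac library 2 the share was 15.1%, and without any other single library it was 56.7% to 63.6%. H3K23ac without any H3K27ac was found at 3524 regions (20.1%), and H3K27ac without any H3K23ac at 2887 (16.5%). The order of these counts turned in the lists of 2644 peaks (1116 against 1838), without H3K23ac library 1 (889 against 4572) and without H3K23ac library 2 (2910 against 4475). Without H3K27ac library 1 they were 3613 and 2709, and without H3K27ac library 2 they were 12605 and 306. Counted in bases, the H3K23ac peaks of either library covered 14.2 Mb and those of H3K27ac 13.8 Mb, with 10.4 Mb under both. That is 72.9% of the H3K23ac bases and 75.1% of the H3K27ac bases. The largest class, 6048 regions, had a peak in both H3K23ac libraries and in H3K27ac library 2 but not in H3K27ac library 1. The 1948 regions found in all 4 lists (11.1%) came after 2 classes seen in a single list, 2662 regions of H3K23ac library 1 alone and 2598 of H3K27ac library 2 alone. When every list was cut to its longest 2644 peaks, as many as H3K27ac library 1 holds, 45.7% of 5444 regions carried both marks. Of those regions, 1355 were seen in H3K27ac library 1 alone, the most numerous class in the equal lists.

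**Figure D1:**
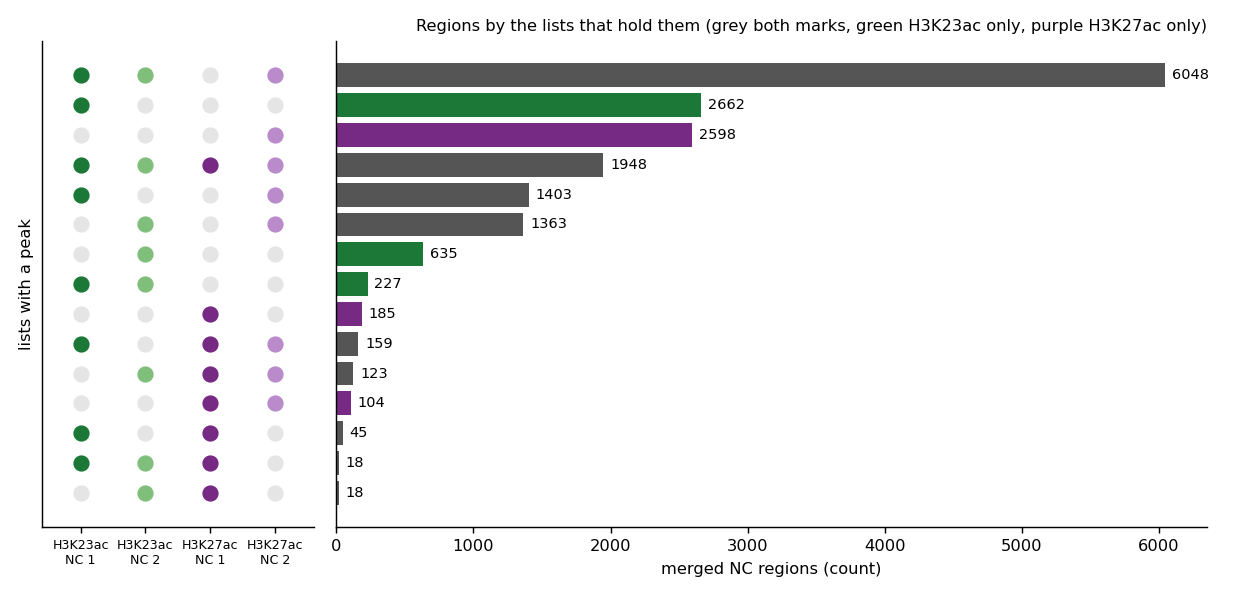
Merged NC regions counted by the lists that hold a peak in them. Filled dots on the left show the lists, and bars on the right the number of regions. The class of both H3K23ac libraries with H3K27ac library 2 is the largest with 6048 regions, and regions found in both lists of 1 mark and in neither of the other number 227 and 104.

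A place where H3K23ac was found in both of its libraries nearly always carried H3K27ac. Of 8241 regions with H3K23ac in both libraries, 8014 had H3K27ac in at least 1 library (97.2%), 7996 in library 2 (97.0%) and 1966 in library 1 (23.9%). Of 2334 regions with H3K27ac in both libraries, 2230 had H3K23ac in at least 1 library (95.5%) and 1948 in both (83.5%). Places seen in a single library of a mark carried the other mark less often by count: 48.5% of 6408 regions for H3K23ac and 76.2% of 11678 regions for H3K27ac. With the equal lists, 89.1% of 1626 regions with H3K23ac in both libraries had H3K27ac in at least 1 library, and 88.5% of 903 such H3K27ac regions had H3K23ac.

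The closest pair of lists was a pair of different marks. Of the H3K23ac library 2 peaks, 91.3% overlapped a peak of H3K27ac library 2, whereas 79.0% overlapped a peak of H3K23ac library 1. Of the H3K23ac library 1 peaks, 76.9% overlapped H3K27ac library 2 and 66.1% H3K23ac library 2. The list of H3K27ac library 2 is longer than either H3K23ac list, which gives it more places to overlap. In bases, a measure that counts what a pair shares against all it covers, the Jaccard index was 0.574 for H3K23ac library 2 with H3K27ac library 2, 0.508 for H3K23ac library 1 with H3K27ac library 2, and 0.493 for the H3K23ac libraries with each other. The H3K27ac libraries had an index of 0.112 with each other, lower than any pair between the marks (0.117 was the lowest of those). The index is held down where covered lengths are unequal, as with the 1.87 and 13.5 Mb of these libraries. Of the bases of H3K27ac library 1, 82.6% lay in H3K27ac library 2, against 73.8% in H3K23ac library 1 and 70.8% in H3K23ac library 2. The order of the closest pair did not change when lists were cut to equal length. Among the 2644 longest peaks of each list, 70.8% of those of H3K23ac library 2 overlapped H3K27ac library 2 and 62.1% overlapped H3K23ac library 1. Among the 10720 longest peaks of the 3 long lists, the same shares were 81.8% and 72.7%. Pairs share lists, so these values are a description with no test.

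H3K27ac library 1 was a short list that mostly lay inside the others. Of its 2644 peaks, 89.6% overlapped H3K27ac library 2, 82.3% H3K23ac library 1 and 80.0% H3K23ac library 2. In the other direction, 16.8% of H3K27ac library 2, 16.8% of H3K23ac library 1 and 19.7% of H3K23ac library 2 peaks overlapped it. Its peaks did not match the longest of the other lists. Of the longest 10% of H3K27ac library 2 peaks (median 2139 bp), 37.5% had a peak in H3K27ac library 1. With lists of 2644 peaks each, 35.1% of its peaks overlapped H3K27ac library 2, 35.2% H3K23ac library 1 and 34.7% H3K23ac library 2. In these equal lists its share with its own mark was thus within 1 percentage point of its shares with the other mark. There H3K27ac library 1 was whole, while the other lists kept only their longest peaks. As deposited, its share was highest with its own mark, whose library 2 is also the longest list.

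Longer peaks were shared more often, for both marks. In H3K23ac library 2 the share that overlapped H3K27ac library 2 was 69.7% in the shortest 10% of the list (median 361 bp) and 100% in the longest 10% (median 2049 bp). In H3K23ac library 1 the same share went from 44.8% to 96.8%. In H3K27ac library 2 the share that overlapped H3K23ac library 1 went from 30.7% to 97.6%, and with H3K23ac library 2 from 25.1% to 98.0%. The same course was seen within a mark, where the share of H3K23ac library 1 peaks that overlapped H3K23ac library 2 went from 30.6% to 93.9%. A long peak also has more bases with which to overlap another by position alone, and the part of this in the shares was not tested. The course was flatter in H3K27ac library 1, from 75.1% to 93.6% with H3K23ac library 1.

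**Figure D2:**
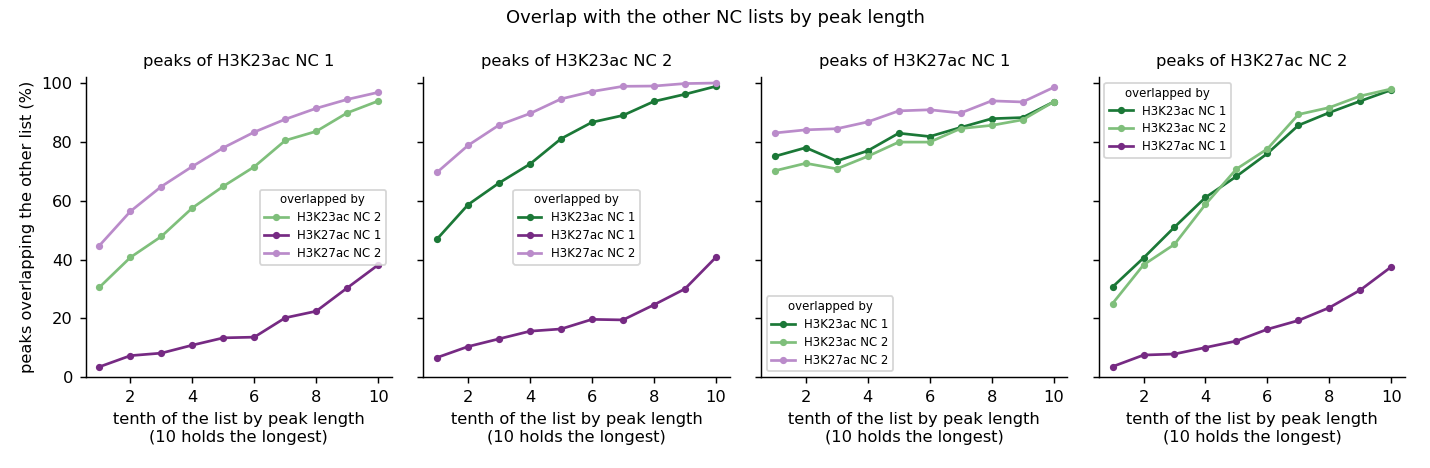
Percent of the peaks of each NC list that overlapped each other list by at least 1 bp (vertical axis), in 10 equal bins of the list ordered by peak length (horizontal axis). Peaks of H3K23ac library 2 overlapped H3K27ac library 2 at 69.7% in the shortest bin and 100% in the longest, while no list was covered above 40.8% in any bin by H3K27ac library 1.

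Few places held 1 mark in both of its libraries and lacked the other mark. H3K23ac was found in both libraries and H3K27ac in neither at 227 regions (1.29% of the 17536). H3K27ac was found in both libraries and H3K23ac in neither at 104 regions (0.593%). The regions that could qualify were 8241 with both H3K23ac libraries and 2334 with both H3K27ac libraries. Of these, 97.2% and 95.5% carried the other mark, so the order of the 2 counts is not that of the shares. The counts of 227 and 104 rest on single libraries. Without H3K27ac library 1, so that library 2 stood for the mark, they were 245 and 2709, and without H3K27ac library 2 they were 6348 and 306. Without H3K23ac library 1 they were 889 and 265, and without H3K23ac library 2 they were 2910 and 231. H3K23ac-only places outnumbered H3K27ac-only places in each of these counts except the one without H3K27ac library 1. That order follows in part from the rule. A mark with a library left out needed a peak in its remaining library only, while the other mark needed both. Counted in any library, H3K27ac-only regions were the more numerous without H3K23ac library 1 (889 against 4572) and without H3K23ac library 2 (2910 against 4475).

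Merged regions with 1 mark were shorter than those with both, in part by construction, since a region spans every peak merged into it and a region with both marks holds at least 2 peaks. Regions with H3K23ac and no H3K27ac in any library had a median length of 469 bp and those with H3K27ac and no H3K23ac 471 bp, against 1098 bp for regions with both. Where the single mark was in both of its libraries, the medians were 664 bp for H3K23ac and 777.5 bp for H3K27ac, against 1511 bp for regions of all 4 lists. The 2 kinds of place also differed in their surroundings. Of the 227 H3K23ac places, 42.7% lay within 5 kb of another NC region, with a median distance to the nearest of 7.58 kb. Of the 104 H3K27ac places 26.9% did, with a median distance of 22.1 kb. The same values over all regions were 35.9% and 11.5 kb. The 104 places all hold a peak of H3K27ac library 1, the sparsest list, and the 185 regions of that library alone had 25.4% within 5 kb.

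The 8 H3K23ac places that ranked highest by peak length had peaks of 788 to 1395 bp. The top one lay on chromosome 3 from 22839911 to 22841061, with peaks of 1151 bp in H3K23ac library 1 and 1137 bp in library 2 and none in either H3K27ac library. The next lay on chromosome 12 from 24186815 to 24187871 (907 and 1057 bp) and on chromosome 14 from 7238496 to 7239522 (951 and 864 bp). The eighth place, on chromosome 19 from 55094768 to 55096756, was held by a 1395 bp peak in library 1 and a 797 bp peak in library 2. Of these 8 regions, 7 had H3K27ac in SIANK library 2 and 0 in SIANK library 1, where 74.95% and 25.5% of all merged NC regions did. The exception, on chromosome 6 from 99614325 to 99615452, with H3K23ac peaks of 799 and 1128 bp, had H3K23ac in both SIANK libraries and H3K27ac in none of the 4 H3K27ac lists of the series.

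The 8 H3K27ac places that ranked highest had peaks of up to 2067 bp. The top one lay on chromosome 5 from 116492211 to 116494863, with 1 peak of 1609 bp in H3K27ac library 1 that bridged 2 peaks of library 2, together 1949 bp. The next lay on chromosome 12 from 12738165 to 12739329 (766 and 1098 bp) and on chromosome 7 from 134560740 to 134561955 (737 and 1183 bp). On chromosome 11 from 62169334 to 62171400 the order of the libraries was reversed, with 2067 bp in library 1 and 880 bp in library 2. All 8 of these regions carried H3K23ac in SIANK library 2, and 5 of them also in SIANK library 1, near the 80.8% and 63.7% of all merged NC regions that did.

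The SIANK lists were not used to choose the places with 1 mark in both of its NC libraries. Most such places carried the other mark in at least 1 SIANK library. The shares lay near those of all NC regions, and below those of places where NC also had the other mark. Of the 227 H3K23ac places, 183 (80.6%) had H3K27ac in at least 1 SIANK library, 181 of them in library 2 and 18 in library 1. Of the 104 H3K27ac places, 92 (88.5%) had H3K23ac in at least 1 SIANK library. Over all 17536 NC regions, which include 6080 seen in exactly 1 list, the corresponding shares were 76.5% and 83.7%. Where NC also had the other mark in any library, they were 98.9% of 8014 regions with both H3K23ac libraries and 99.8% of 2230 with both H3K27ac libraries. In SIANK library 1, H3K27ac was found at 7.93% of the 227 places and at 25.5% of all NC regions. Among the 3524 regions with H3K23ac in any NC library and no H3K27ac, 31.1% had H3K27ac in a SIANK library, and among the 2887 of the reverse kind 74.7% had H3K23ac. The 2662 regions seen in H3K23ac library 1 alone stood apart from the 635 seen in library 2 alone: 27.1% and 67.9% of them had H3K23ac in SIANK library 2, and 19.1% and 56.7% had H3K27ac there. Acetylation of lysine 5 of histone H4 (H4K5ac), the third mark of the series, had short NC lists. It was found in an NC library at 2.01% of regions with both marks, 0.454% of those with H3K23ac only and 0.935% of those with H3K27ac only, over all regions 1.52%. Region length moved with these shares, and its part in them was not tested.

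Which mark extended further at shared places depended on the H3K27ac library. Where exactly 1 peak of an H3K23ac list overlapped exactly 1 peak of an H3K27ac list, H3K27ac library 2 peaks were mostly the longer and H3K27ac library 1 peaks mostly the shorter. Against H3K27ac library 2, the H3K23ac peak was the longer in 34.5% of 9158 pairs for H3K23ac library 1 and in 30.6% of 9136 pairs for library 2. Against H3K27ac library 1, the H3K23ac peak was the longer in 79.5% of 2100 pairs and in 77.6% of 2037 pairs. The H3K23ac libraries set against each other were even, with library 1 the longer in 48.8% of 7933 pairs. The H3K27ac libraries were further apart than any pair between the marks, with library 1 the longer in 15.5% of 2290 pairs. The mean over the 4 pairings of the marks was 55.5%, and it was 32.5% without H3K27ac library 1 and 78.5% without H3K27ac library 2.

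The size of these differences was moderate for H3K27ac library 2 and larger for library 1. The median log2 length ratio, H3K23ac over H3K27ac, was -0.16 and -0.17 against H3K27ac library 2, for H3K23ac libraries 1 and 2. It was 0.63 and 0.58 against H3K27ac library 1. Length ratios beyond 2-fold in favour of H3K27ac library 2 were found in 9.02% and 7.74% of pairs, and beyond 2-fold in favour of H3K23ac in 3.28% and 1.21%. Against H3K27ac library 1, 32.7% and 31.6% of the H3K23ac peaks were over 2-fold longer. With the equal lists the medians were -0.15 and -0.12 against H3K27ac library 2 and 1.17 and 1.22 against library 1. Those latter values follow in part from the cut itself, since the shortest of the 2644 longest peaks was 1192 and 1157 bp for H3K23ac while H3K27ac library 1 kept its whole list, from 343 bp. Among the 3 lists of 10720 peaks, cut by length in the same way, the H3K23ac peak was the longer in 31.8% and 26.4% of pairs with H3K27ac library 2.

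**Figure D3:**
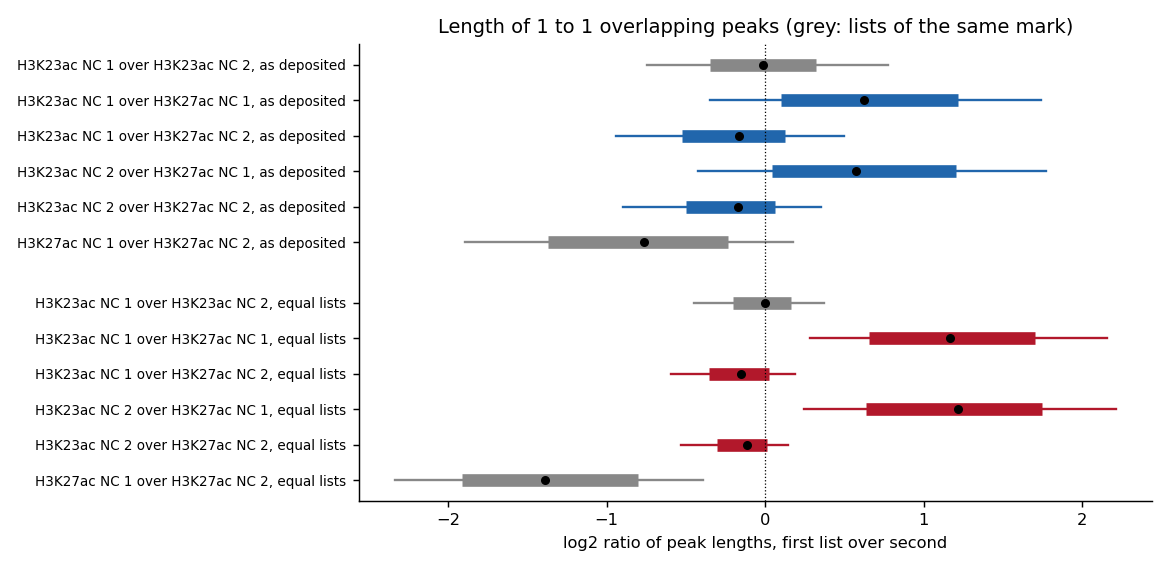
Log2 ratio of the lengths of 1 to 1 overlapping peaks for each pair of NC lists, first list over second, as deposited and with lists held to 2644 peaks. Points are medians, thick bars run from the 25th to the 75th percentile and thin lines from the 10th to the 90th. Pairs with H3K27ac library 2 lie left of 0 (medians -0.16 and -0.17) and those with H3K27ac library 1 right of it (0.63 and 0.58), and the grey pair of H3K27ac libraries is wider apart than either.

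By the median over pairs, the longer mark reached further both at the start and at the end. Against H3K27ac library 2, the median distance by which an H3K23ac library 1 peak reached beyond it was -30.0 bp at the start and -28.0 bp at the end, so that H3K27ac reached further by similar amounts on each side. For H3K23ac library 2 these were -34.0 and -32.0 bp. Against H3K27ac library 1, H3K23ac library 1 peaks reached beyond it by medians of 149 bp at the start and 166.5 bp at the end. Peaks of H3K23ac libraries 1 and 2 lay wholly inside the H3K27ac library 2 peak in 41.1% and 44.5% of pairs, and enclosed it in 18.5% and 12.6%. They enclosed the H3K27ac library 1 peak in 56.5% and 54.5%. In many pairs neither peak enclosed the other, so that each reached further on 1 side. These were 40.5% and 43.0% of pairs with H3K27ac library 2, and 34.7% and 36.5% with H3K27ac library 1. Centres of overlapping peaks were 91.5 and 91.0 bp apart by the median for both H3K23ac libraries with H3K27ac library 2, and 95 bp apart for the H3K23ac libraries with each other.

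The excess of H3K27ac library 2 was seen from the shortest to the longest shared peaks. In 5 equal bins of the pairs ordered by their geometric mean length, H3K23ac library 2 peaks were the longer in 35.8% of the shortest bin (median pair length 487 bp) and in 30.2% of the longest (1694 bp). For H3K23ac library 1 the shares were 37.3% and 33.8%. The median difference in bases, H3K23ac minus H3K27ac, went from -54.0 to -118 bp for H3K23ac library 2, and from -47.0 to -148 bp for library 1. As a median log2 ratio, it went from -0.17 to -0.096 for H3K23ac library 2 and from -0.15 to -0.12 for library 1. The ratios were lowest in the second-shortest bin, at -0.26 and -0.24, so the relative excess was not largest in the longest peaks. Against H3K27ac library 1, the share of pairs in which H3K23ac library 1 was the longer was 69.5% in the shortest bin and 86.0% in the longest.

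At places with exactly 1 peak in every list the 4 libraries could be compared over the same regions. There were 1688 such regions, with geometric mean peak lengths of 1054 and 1030 bp in the H3K23ac libraries and 666 and 1213 bp in the H3K27ac libraries. H3K27ac again had the longest and the shortest library, with both H3K23ac libraries between them. The log2 difference, H3K23ac minus H3K27ac, was 0.21 (SE 0.43), a ratio of 1.16, for which exact permutation gave p = 1 over 2 libraries per mark. Without H3K27ac library 1 it was -0.23, over 7319 regions with geometric means of 874 and 873 bp in the H3K23ac libraries and 1021 bp in H3K27ac library 2. Of the 1688 regions, 634 (37.6%) had the longest peak in H3K27ac library 2 and the shortest in H3K27ac library 1, with both H3K23ac peaks between. Both H3K23ac peaks were longer than both H3K27ac peaks at 173 regions (10.2%), and both H3K27ac peaks were longer at 140 (8.29%).

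Peak lengths at these 1688 places followed each other across the marks in 3 of the 4 lists. Spearman's rho of peak length, across regions that share a library and are not independent replicates, was 0.79 for H3K23ac library 2 with H3K27ac library 2. It was 0.74 for H3K23ac library 1 with H3K27ac library 2 and 0.70 for the H3K23ac libraries with each other. H3K27ac library 1 had rho of 0.26 and 0.27 with the H3K23ac libraries and 0.29 with the other H3K27ac library. The regions that are long in that library were thus largely other ones than in the remaining 3 lists, whichever mark those held.

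The places where both peaks of 1 mark were longer than both peaks of the other were chosen for that difference. Their values are a description. They were ranked by length, and the longer mark did not always reach beyond the other at both ends. On chromosome 2 from 207107705 to 207109215, H3K23ac peaks were 1511 and 1226 bp and H3K27ac peaks 434 and 427 bp. On chromosome 3 from 151354982 to 151357265 they were 2104 and 1753 bp against 399 and 1009 bp. On chromosome 6 from 109298267 to 109301735, where every peak was over 2 kb, they were 3469 and 3069 bp against 2327 and 2213 bp. In the reverse direction, H3K27ac peaks were 1867 and 1853 bp and H3K23ac peaks 682 and 1106 bp on chromosome 1 from 237908026 to 237910254. On chromosome 8 from 61594322 to 61596088 they were 1767 and 1656 bp against 1008 and 781 bp. On chromosome 5 from 72285609 to 72287942 they were 2332 and 2265 bp against 1485 and 1682 bp. All 5 regions named in each direction carried both marks in both SIANK libraries of each mark, as did 96.6% to 100% of the regions of all 4 NC lists in each of these SIANK lists.

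The 5 top places shared by all 4 lists had their shortest covered length in H3K27ac library 1. That is the usual order, since this library had the shortest peak at 69.7% of the 1688 regions with 1 peak in each list. By the lowest within-list rank of peak length, the top region lay on chromosome 1 from 221198528 to 221209735 (11208 bp). It held 1 peak of 11191 bp in H3K23ac library 2 and 1 of 10347 bp in H3K27ac library 2. H3K23ac library 1 had peaks of 8942 and 590 bp there, and H3K27ac library 1 had peaks of 2762 and 807 bp. The next lay on chromosome 9 from 65534224 to 65537658, with 3020 and 3360 bp of H3K23ac and 2300 and 3336 bp of H3K27ac. On chromosome 1 from 264764465 to 264769062, H3K23ac library 1 had 1 peak of 4585 bp and H3K27ac library 1 had 1 of 1833 bp, while H3K23ac library 2 (3610 bp) and H3K27ac library 2 (3684 bp) each had 2 peaks. On chromosome 13 from 90810627 to 90814523, H3K23ac library 1 alone had 2 peaks (3346 bp), and the others had 1 peak each of 3821, 2031 and 3437 bp. On chromosome 10 from 56010263 to 56013932, lengths were 3670 and 3272 bp in the H3K23ac libraries against 2730 and 2994 bp in the H3K27ac libraries. None of the 5 carried H4K5ac in any of its 4 lists, where 0.770% to 9.75% of the regions of all 4 NC lists did in each.

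**Figure D4:**
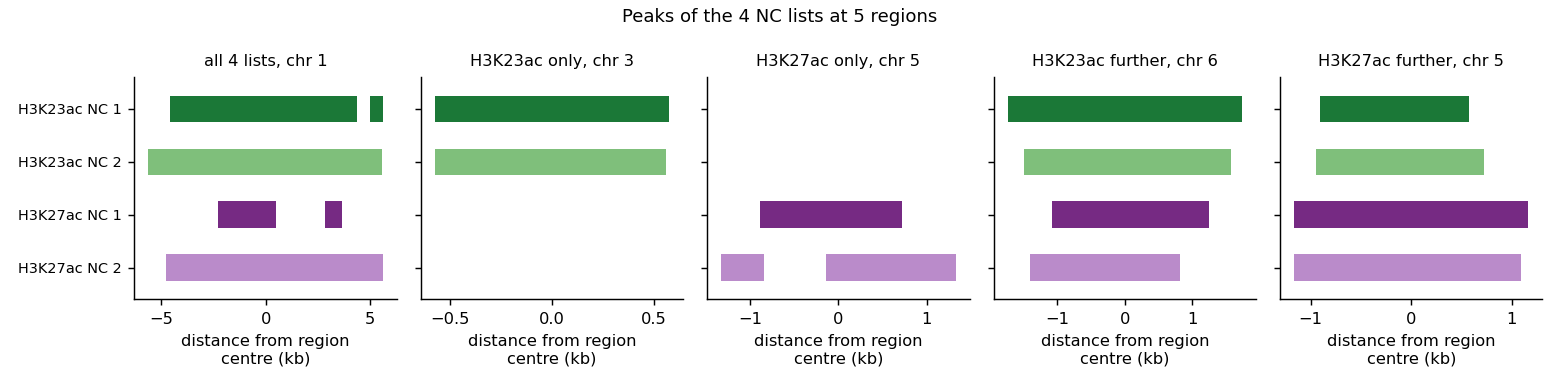
Peaks of the 4 NC lists at 5 of the named regions, drawn to scale as distance from the region's centre in kb, with 1 row per list. The chromosome 1 region spans 11208 bp with short H3K27ac library 1 peaks inside, the chromosome 3 and chromosome 5 regions hold 1 mark only, and in the right-hand panels H3K23ac (3469 and 3069 bp) and H3K27ac (2332 and 2265 bp) are the longer marks.

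Peak length over whole lists did not separate the marks. Median lengths were 711 and 765 bp in the H3K23ac libraries and 607.5 and 790.0 bp in the H3K27ac libraries, so that the H3K27ac libraries again lay on either side. The 90th percentile was 1565 and 1641 bp in the H3K23ac lists and 1156 and 1721 bp in the H3K27ac lists. H3K23ac had 129 and 128 peaks that reached 3 kb, and H3K27ac had 1 and 194. The ratio of the geometric means of median length, H3K23ac over H3K27ac, was 1.06 (log2 0.09, SE 0.20), for which exact permutation gave p = 1. Cutting each list to its 2644 longest peaks gave medians of 1552.5 and 1531.5 bp in the H3K23ac lists, 607.5 bp in H3K27ac library 1 and 1758.5 bp in H3K27ac library 2. With the 3 long lists at 10720 peaks, H3K27ac library 2 had a median of 955 bp against 818 and 765 bp, and a log2 difference of -0.27. It covered 12.1 Mb against 10.5 and 9.94 Mb. These lengths follow in part from the cut, which kept the longest peaks: the shortest kept was 504 bp in H3K27ac library 2 and 417 bp in H3K23ac library 1, while H3K23ac library 2 was whole, from 326 bp.

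Median gaps of the H3K27ac libraries lay on either side of those of H3K23ac. The median gap between neighbouring peaks of a list was 40.0 and 46.8 kb for H3K23ac and 313 and 34.9 kb for H3K27ac. The log2 difference was -1.27 (SE 1.59), for which exact permutation gave p = 1. It was 0.31 without H3K27ac library 1. Gaps of at most 5 kb made up 18.2% and 16.7% of those in the H3K23ac lists and 4.46% and 19.6% in the H3K27ac lists, a difference of 5.41 percentage points (SE 7.62, exact permutation p = 1). Adjusted by Benjamini-Hochberg over the 6 such tests of this comparison, every p stayed at 1. At 10720 peaks each, the median gaps of the 3 long lists were 47.1 and 46.8 kb for H3K23ac and 46.7 kb for H3K27ac, within 1 kb of each other. The share of gaps of at most 5 kb was then 15.7% and 16.7% for H3K23ac and 15.8% for H3K27ac. At 2644 peaks each, H3K27ac library 1 had the widest median gap, 313 kb, against 192 and 224 kb for H3K23ac and 215 kb for H3K27ac library 2. Its share of gaps of at most 5 kb was 4.46% against 7.51%, 7.66% and 7.47%, the lowest of the 4 lists at equal number. The cut kept the longest peaks of the other lists, while H3K27ac library 1 was whole. The part of the cut in this order was not tested.

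**Figure D5:**
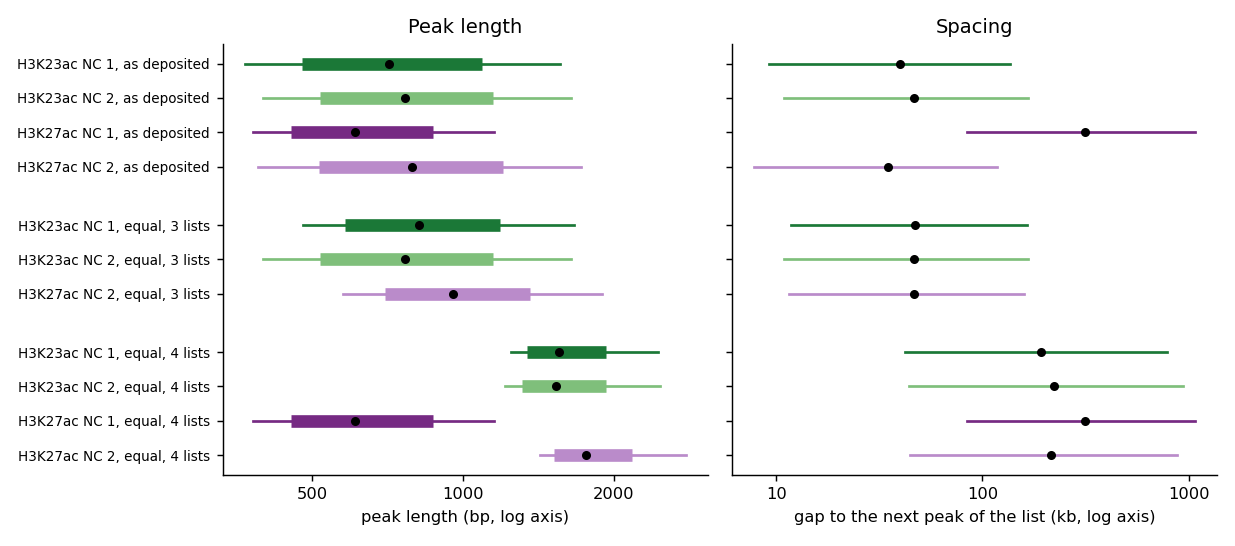
Peak length in bp (left) and gap to the next peak of the same list in kb (right), both on log axes, for each NC list as deposited, held to 10720 peaks (3 lists) and held to 2644 peaks (4 lists). Points are medians, thick bars the 25th to 75th percentile and thin lines the 10th to 90th for length, and thin lines the 25th to 75th for gaps. At 10720 peaks the median gaps lie between 46.7 and 47.1 kb.

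A minority of the peaks of 1 mark that did not overlap the other lay within 5 kb of it. Of the 2978 peaks of H3K23ac library 1 that did not overlap H3K27ac library 2, 24.4% lay within 5 kb of one of its peaks, at a median distance of 22.5 kb. Of the 930 such peaks of H3K23ac library 2, 36.2% did, at a median of 12.1 kb. Of the 4283 H3K27ac library 2 peaks that did not overlap H3K23ac library 1, 27.4% lay within 5 kb of it, and of the 4348 that did not overlap H3K23ac library 2, 25.5%. Overlapping peaks had a further peak of the other list within 5 kb in 29.8% (H3K23ac library 1 with H3K27ac library 2) and 31.1% (H3K23ac library 2) of cases. Against H3K27ac library 1, 5.46% and 5.73% of the non-overlapping peaks of H3K23ac libraries 1 and 2 lay within 5 kb, at medians of 126 and 121 kb. Peaks of H3K23ac library 2 without H3K27ac were thus nearer to H3K27ac library 2 peaks, by the median, than those of H3K23ac library 1 were.

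Chromosomes differed in the share of regions with 1 mark, with the highest H3K23ac-only share on X and the lowest on 18, among all but Y. Regions with both marks made up 55.7% to 67.9% of the regions of each chromosome other than Y. On chromosome X, 78 of 244 regions (32.0%, exact interval 26.2 to 38.2) had H3K23ac and no H3K27ac, against 20.1% over all chromosomes, and 12.3% had H3K27ac and no H3K23ac, against 16.5%. On chromosome 18, 56 of 472 regions (11.9%, 9.09 to 15.1) had H3K23ac only and 106 (22.5%, 18.8 to 26.5) had H3K27ac only. The exact interval of the H3K23ac-only share also left out 20.1% on chromosomes 2, 3 and 7 (22.6%, 23.7% and 22.96%) and on chromosomes 4, 5, 9 and 12 (16.6%, 17.1%, 17.0% and 15.7%). These intervals cover counting over regions of the same 4 libraries only, and they were looked at on every chromosome. Chromosomes X and 18 were singled out after their values had been seen. By library, chromosome X held 1.43% and 1.22% of the H3K23ac peaks and 1.06% and 1.19% of the H3K27ac peaks, and chromosome 18 held 2.48% and 2.89% of H3K23ac and 3.33% and 2.95% of H3K27ac. The libraries of the marks do not overlap on either chromosome, but libraries 2 alone differ little (1.22% against 1.19% and 2.89% against 2.95%). Such separation was found on 10 of 21 chromosomes, 6 with H3K23ac higher (28.6% of chromosomes) and 4 with H3K27ac higher (19.0%), so it is not particular to these. With 2 libraries per mark, a share of 0.333 of the label arrangements separates the marks. The chromosomes also share their libraries, so this count is a description. Without H3K23ac library 1, H3K23ac-only regions made up 9.73% of those on chromosome X and 3.68% of those on chromosome 18, against 5.92% over all chromosomes. H3K27ac-only regions then made up 30.3% on X and 31.0% on 18, against 30.4% over all, so that this contrast was not seen without that library. Without H3K27ac library 2, H3K23ac-only regions made up 87.1% on X and 77.6% on 18, against 82.9% over all.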

How the data were processed

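CUT&Tag peak lists, 1 per library, were used as deposited by the authors: chromosome, start, end and length (counted from 1), with no header line on calling. BWA and deepTools are named in the submitters' processing notes, without versions. The peak caller, its threshold and control, and the build were not given in the sources used here, and depth is unknown. Lists were processed in Python 3.11.15 with pandas 2.3.3 and scipy 1.17.1. Peaks sharing at least 1 bp were merged, and bedtools 2.31.1 gave the same 17536 regions. Groups came from the labels. List values were compared on the log2 scale (gap shares in percent) by exact two-sided permutation of 2 libraries against 2, adjusted over 6 tests. Equal lists held the longest 2644 or 10720 peaks. Named regions were ranked by their lowest within-list percentile of peak length, or by the base pairs by which the shorter peak of 1 mark exceeded the longer of the other. Of the NC peaks, 1175 lie beyond the last gene of the RefSeq GRCr8 table, so that table was not used and no sequence is printed. Members, lists and tests were chosen with earlier results of these data known. On 2400 simulated regions, 100% of each class and a length ratio of 1.25 were recovered. The simulated peaks of a region shared 1 centre and the regions lay far apart, so this checks the code only.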

Additional observations from a re-analysis of the deposited data

How the results depend on the processing

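Of 103 values under alternatives, 11 reversed and 30 moved in size or count. The other 62 kept their direction or, for values with no test, stayed within their spread or binomial interval, or within 1.5 times the count. For the differences between lists this holds for the direction and not for the size. All 11 reversals left out H3K27ac library 1. With that library left out, the log2 differences (H3K23ac minus H3K27ac) were -0.25 for peak number, -0.35 for covered length, -0.10 for median length, -0.23 for length at shared places and 0.31 for the median gap, gaps of at most 5 kb differed by -2.18 percentage points, and the H3K23ac peak was the longer in 32.5% of pairs. With the 3 remaining lists also cut to 10720 peaks, covered length was at -0.25, median length at -0.27, length at shared places at -0.24 and the median gap at 0.0071. Regions with both marks made up 66.2% with merging over 1000 bp, 45.7% with 2644 peaks per list, 62.2% with the longer 50% of each list and 57.4% where a peak had to cover 50% of the region. Regions of all 4 lists numbered 577 with 2644 peaks per list, 765 with the longer 50% and 700 with 50% coverage, against 1948 as deposited. Without H3K27ac library 1, regions of all 3 remaining lists numbered 6980 with 10720 peaks per list, against 7996 as deposited. At 10720 peaks, 596 regions had both H3K23ac libraries and no H3K27ac, and 1298 had H3K27ac library 2 and no H3K23ac. As deposited, those 3 lists gave 245 and 2709. Leaving out 1 library at a time gave ranges of 15.1 to 63.6% for regions with both marks and 1957 to 7996 for regions of all 3 remaining lists. The ranges were 245 to 6348 for H3K23ac-only and 231 to 2709 for H3K27ac-only regions. In the same order as above, the list differences ran from -0.25 to 2.15, -0.35 to 2.50, -0.10 to 0.28, -0.23 to 0.66, -2.86 to 0.31 and -2.18 to 13.0 points, and the share of longer H3K23ac peaks from 32.5 to 78.5%. The lists that enter set these counts by construction, and the cause of the other changes was not tested.

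With the replicate number as a block, the differences stayed at 0.95 for peak number, 1.08 for covered length, 0.09 for median length, 0.21 for length at shared places, -1.27 for the median gap and 5.41 points for close gaps, each with an exact permutation p of 1, where 0.5 is the smallest possible. The deviations of same-numbered libraries correlated at 0.25 over region presence and 0.09 over peak length, and 2 pairs are too few to read a pairing from. The values for chromosomes X and 18 without each library were added after seeing the data, and 10 of 16 moved. Depth is unknown, so a place without a peak may hold signal under the threshold.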

Other observations

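In 3 of the 4 NC lists the smallest gap between neighbouring peaks was 1 bp more than the shortest peak: 305 and 304 bp in H3K23ac library 1, 327 and 326 bp in H3K23ac library 2, and 316 and 315 bp in H3K27ac library 2. In H3K27ac library 1 these were 356 and 343 bp.

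The fifth of the places where both H3K27ac peaks were the longer lay on chromosome 2 from 550282 to 551776. The H3K23ac peaks were 656 and 698 bp there and the H3K27ac peaks 1495 and 1227 bp. The peaks of all 4 lists ended there at base 551775 or 551776, so that the marks differed at the start of the peak and not at its end.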
